A study of Homo sapiens with 8 samples.

Results

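Nickel-treated BEAS-2B cells were examined for 9 genes of the 25411 listed, namely 8 metallothionein genes (MT1A, MT1E, MT1F, MT1G, MT1H, MT1M, MT1X and MT2A) and MTF1, the gene of their transcriptional regulator. The 9 genes were taken by name and function, with earlier results of these data known. RNA-Seq read counts and RPKM values (reads scaled by transcript length and library size) were available for 8 libraries of BEAS-2B, an immortalised epithelial cell line from human bronchus, with 2 biological replicates in each of 4 groups. UT cells received no nickel. Ni-E cells were cultured with 100 µM NiCl2 for 6 weeks. Ni-W cells had the same exposure, after which a colony grown from a single cell was expanded for more than 6 months in medium without nickel. HCl3 cells carry the same treatment description as Ni-W, but their labels give neither the time without nickel nor how they relate to Ni-W. Ni-W therefore stands for a population grown from a single cell, and for HCl3 such an origin rests on the shared treatment description alone. A feature of a clone and an effect of past exposure cannot be told apart in these groups. No growth from single cells is described for UT or Ni-E.

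Metallothioneins are small cysteine-rich proteins that bind zinc, copper, cadmium and other metal ions, and their genes are among the most metal-responsive in human cells. MTF1 is a zinc-finger transcription factor that senses zinc and binds short metal response elements (MREs) in the promoters of metallothioneins and of several zinc transporter genes. In epithelial cells MT2A is usually the main isoform, and the MT1 genes lie next to it in 1 cluster on chromosome 16.

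MT2A and MT1E transcripts were higher during nickel exposure than in untreated cells. MT1E was lower in both washed-out groups than in Ni-E. MT2A was 1.52-fold lower in Ni-W than in Ni-E, which was called, and 1.42-fold lower in HCl3, just under the 1.5-fold limit. MT1E also fell below its untreated level in Ni-W, whereas the estimates for MT2A were within 1.5-fold of its untreated level in both washed-out groups. MT1X was called in no comparison, MT1F was called in HCl3 alone and on few reads, and 4 further metallothioneins were at or near 0 reads. MTF1 itself was not called in any comparison of the main fits, where its estimates were lower in both washed-out groups than in UT but under 1.5-fold. Its estimate was the one most affected by a correction for gene length and base composition. With that correction MTF1 was called lower in both washed-out groups than in UT and than in Ni-E.

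The metallothionein cluster, as listed in the files, spans 119 kb of hg19 (chr16:56598961-56718108) and holds 15 metallothionein rows. MT2A (NM_005953) lies at chr16:56642478-56643409, MT1E (NM_175617) at chr16:56659585-56661024, MT1F (NM_005949) at chr16:56691855-56693215 and MT1X (NM_005952) at chr16:56716382-56718108, all on the plus strand. The 4 little-expressed members are MT1M (NM_176870, chr16:56666534-56667898), MT1A (NM_005946, chr16:56672578-56673999) and MT1H (NM_005951, chr16:56703726-56705041) on the plus strand and MT1G (NM_005950, chr16:56700653-56701977) on the minus strand. MTF1 (NM_005955) lies on the minus strand of chromosome 1 at chr1:38275239-38325292. No member overlaps another listed gene, and a value covers all exons of a gene, so none can be assigned to 1 exon, intron or UTR.

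Promoter sequences are shown because MTF1 acts through MREs. RefSeq windows of assembly GRCh38.p14 matched 4 of the 9 members, MT2A, MT1X, MT1H and MTF1, and none of MT1A, MT1E, MT1F, MT1G or MT1M. Each line gives the 250 bases before the annotated start site, 5′ to 3′ on the gene's strand, and capitals mark every match to the MRE core, TGCACNC or TGCGCNC, read on either strand. The windows are chr16:56608334-56608583 (plus) for MT2A, chr16:56682220-56682469 (plus) for MT1X, chr16:56669564-56669813 (plus) for MT1H and chr1:37859593-37859842 (minus) for MTF1.
MT2A: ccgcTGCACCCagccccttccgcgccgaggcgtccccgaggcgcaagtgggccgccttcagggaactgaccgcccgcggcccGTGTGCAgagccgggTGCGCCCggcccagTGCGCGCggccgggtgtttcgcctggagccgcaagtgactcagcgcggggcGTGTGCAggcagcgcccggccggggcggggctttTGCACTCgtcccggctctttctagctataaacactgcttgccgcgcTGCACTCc
MT1X: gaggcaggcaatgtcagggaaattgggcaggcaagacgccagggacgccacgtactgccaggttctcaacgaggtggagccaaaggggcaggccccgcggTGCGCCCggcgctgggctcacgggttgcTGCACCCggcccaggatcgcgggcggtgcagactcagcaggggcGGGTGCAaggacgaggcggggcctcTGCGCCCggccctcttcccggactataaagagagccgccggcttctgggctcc
MT1H: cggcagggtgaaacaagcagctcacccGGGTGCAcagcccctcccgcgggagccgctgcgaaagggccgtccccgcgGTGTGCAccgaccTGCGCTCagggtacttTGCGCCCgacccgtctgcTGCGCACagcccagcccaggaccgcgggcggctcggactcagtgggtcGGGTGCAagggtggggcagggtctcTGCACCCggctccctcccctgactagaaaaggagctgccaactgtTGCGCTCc
MTF1: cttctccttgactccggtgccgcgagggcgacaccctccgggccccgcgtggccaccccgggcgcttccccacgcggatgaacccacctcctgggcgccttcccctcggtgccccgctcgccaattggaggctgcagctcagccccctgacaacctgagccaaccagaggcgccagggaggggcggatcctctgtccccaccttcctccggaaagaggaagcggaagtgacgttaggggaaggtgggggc

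The MT2A window held 7 MRE cores, the MT1X window 4 and the MT1H window 8, with no core overlapping another, and the MTF1 window held 0. Of 35116 promoter windows of the same length, 24.8% held at least 1 core, 0.370% at least 4, 0.0313% at least 7 and 0.0171% at least 8. All 3 metallothionein windows had a core starting 53 or 54 bases before the start site. A TATA motif, TATAAA, lay 29 bases before the start in MT2A and 30 bases before it in MT1X, was not matched in MT1H or MTF1, and was present on either strand in 10.7% of all windows. The MT1H window was thus the richest in cores of the 4, although MT1H was almost unread in these cells. These matches are descriptions of letters and not of binding.

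**Figure D1:**
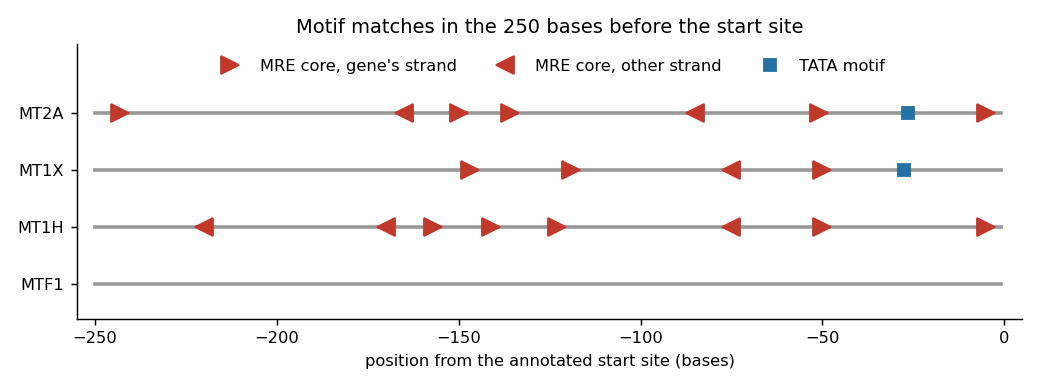
Positions of MRE core matches (red triangles, pointing right on the gene's strand and left on the other strand) and of the TATA motif (blue squares) in the 250 bases before the start sites of MT2A, MT1X, MT1H and MTF1; the horizontal axis is the distance from the start site in bases. MT2A carries 7 cores, MT1X 4, MT1H 8 and MTF1 none, and a core near −53 is shared by the 3 metallothioneins.

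Libraries held between 26383920 and 45692298 reads assigned to genes, so that 3 reads, taken as the floor, correspond to 0.0657 to 0.114 CPM (reads of a gene per 1000000 reads of the library). The cell line label was compared with marker genes. Of 7 epithelial markers, 3 or 4 were at 1 RPKM or more in both libraries of a group, with a summed level of 579 to 996 RPKM mostly from KRT7, KRT8 and KRT18, whereas CDH1 did not exceed 0.11 RPKM in any library and KRT5 did not exceed 0.03 RPKM. The summed level of these markers was 579 to 794 RPKM in UT and Ni-E and 935 to 996 RPKM in Ni-W and HCl3. Of 6 fibroblast or mesenchymal markers, COL1A1 and PDGFRB were expressed in all groups and DCN was at 0 in every library, with sums of 189 to 484 RPKM. These sums, mostly from COL1A1, were 413.5 and 359 RPKM in UT and 189 and 354 RPKM in Ni-E. They were 243 and 269 RPKM in Ni-W but 461 and 484 RPKM in HCl3, so the washed-out groups differed in them. Blood markers summed to 1.06 to 4.24 RPKM, nearly all from CD14, with CD3E at 0, and endothelial markers to 0.01 to 0.11 RPKM. The part of these marker shifts in the results below was not tested. In bulk RNA, fewer cells expressing a gene and less RNA per cell cannot be told apart.

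MT2A, the main metal-binding isoform, was the most abundant metallothionein in every library. Its level was 292 and 207 RPKM in the UT libraries (replicates 1 and 2), 397 and 496 RPKM in Ni-E, 324 and 261 RPKM in Ni-W, and 306 and 328 RPKM in HCl3. Both Ni-E libraries lay above all the others, and the ranges of UT and Ni-W overlapped. The group means were 250 ± 60 RPKM for UT, 447 ± 70 RPKM for Ni-E, 293 ± 45 RPKM for Ni-W and 317 ± 16 RPKM for HCl3 (SD, n = 2). In the fit across all genes with DESeq2, MT2A was 1.72-fold higher in Ni-E than in UT (log2 fold change 0.78 ± 0.16 SE, adjusted p = 3.27e-05). It lost this call without UT replicate 2 (0.55, adjusted p = 0.0152, under 1.5-fold) or without Ni-E replicate 2 (0.63, adjusted p = 0.0540). Without UT replicate 1 it was 1.05 (adjusted p = 2.29e-08). With limma on log2 RPKM values the call between Ni-E and UT was also lost (adjusted p = 0.157 and 0.166 with pseudocounts 1 and 0.1). Against UT the difference was 0.19 ± 0.15 in Ni-W (adjusted p = 0.376, 95% interval −0.11 to 0.49) and 0.29 ± 0.14 in HCl3 (adjusted p = 0.0939, 0.02 to 0.56). With trends in GC content and transcript length removed, these values were 0.39 and 0.48 (adjusted p = 4.83e-05 and 7.92e-10), both still under 1.5-fold.

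Compared directly with Ni-E, MT2A fell in Ni-W by 0.60 on the log2 scale (SE 0.12, adjusted p = 8.22e-06), which is 1.52-fold. The call was lost without Ni-E replicate 2 (−0.47), without Ni-W replicate 2 (−0.46) and with GC and length trends removed (−0.34, adjusted p = 0.00703). It was also lost with limma (adjusted p = 0.0817 and 0.0848 with pseudocounts 1 and 0.1). In HCl3 the value was −0.51 ± 0.10 (adjusted p = 3.74e-06), just short of 1.5-fold, and it passed that size without Ni-E replicate 1 (−0.64). It was smaller, at −0.26, with GC and length trends removed (adjusted p = 0.0294). With limma its adjusted p was 0.0704 and 0.0746 with pseudocounts 1 and 0.1. HCl3 and Ni-W differed by 0.10 ± 0.10 (adjusted p = 0.599). The order of levels was therefore Ni-E, HCl3, Ni-W and UT. In the fits of the deposited counts with all libraries kept and no trend removed, neither HCl3 and Ni-W nor Ni-W and UT differed past the threshold. Ni-W against UT had an adjusted p under 0.05 with the trends removed, as given above, and without UT replicate 1 (0.46, adjusted p = 0.0185), under 1.5-fold in both.

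MT1E, another functional isoform, had the widest changes of any member. It stood at 29.5 and 17.6 RPKM in UT, 52.0 and 59.6 RPKM in Ni-E, 11.9 and 7.89 RPKM in Ni-W, and 16.5 and 16.8 RPKM in HCl3. No 2 groups overlapped, although the lower UT library was only slightly above HCl3. MT1E was 2.27-fold higher in Ni-E than in UT (log2 1.18 ± 0.21, adjusted p = 1.61e-06), and this call held when any 1 library was left out (0.86 to 1.61). In Ni-W it was lower than in UT (−1.29 ± 0.27, adjusted p = 1.49e-05). With limma that difference was not called (adjusted p = 0.0913 and 0.0979 with pseudocounts 1 and 0.1). Without UT replicate 1, the higher UT library, that difference was −0.86 with an adjusted p = 0.0593. In HCl3 the value against UT was −0.56 ± 0.23 (adjusted p = 0.0422), under 1.5-fold. Without UT replicate 2, the lower UT library, it passed the threshold (−0.89, adjusted p = 0.000565), whereas without UT replicate 1 it was −0.14 (adjusted p = 0.770) and with the replicate block the adjusted p was 0.211.

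The fall from the exposed to the washed-out cells was the largest difference of any measured member. MT1E was 5.57-fold lower in Ni-W than in Ni-E (−2.48 ± 0.19, adjusted p = 3.51e-37) and 3.38-fold lower in HCl3 than in Ni-E (−1.76 ± 0.15, adjusted p = 1.82e-31). Leaving out single libraries gave −2.81 to −2.23 and −1.84 to −1.68, all called. MT1E also differed between the washed-out groups, being higher in HCl3 than in Ni-W (0.73 ± 0.22, adjusted p = 0.00796). That call was lost without Ni-W replicate 2, HCl3 replicate 1 or HCl3 replicate 2 (0.48 to 0.75, adjusted p = 0.248 to 0.380) and with the replicate number as a block (adjusted p = 0.0731).

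**Figure D2:**
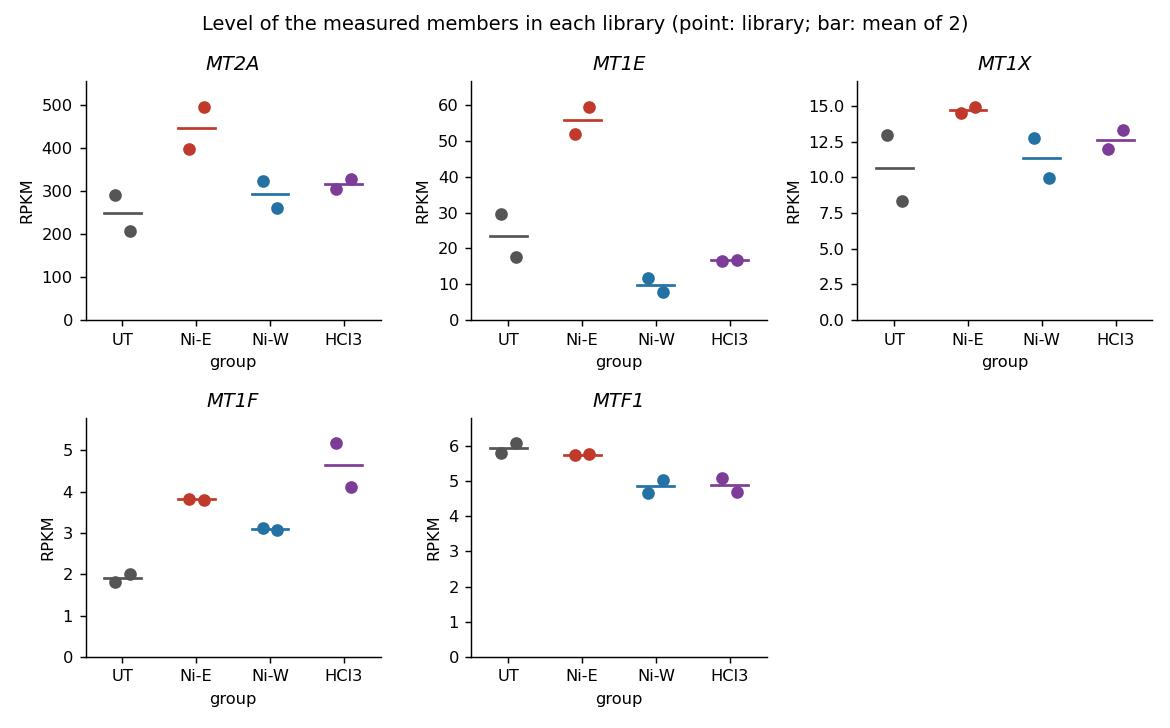
RPKM of MT2A, MT1E, MT1X, MT1F and MTF1 in each library (points) with the mean of each group of 2 (bars), on linear axes from 0 that differ between panels; groups are UT, Ni-E, Ni-W and HCl3. Both Ni-E libraries are the highest for MT2A, MT1E and MT1X, MT1E drops to 7.89 to 16.8 RPKM in the washed-out cells, and MTF1 stays between 4.66 and 6.08 RPKM.

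MT1X, the isoform at the distal end of the cluster, was less abundant. It was at 12.98 and 8.32 RPKM in UT, 14.5 and 15.0 RPKM in Ni-E, 12.8 and 9.95 RPKM in Ni-W, and 12.02 and 13.29 RPKM in HCl3. Ni-E was again highest, but the UT libraries differed from each other more than the group means did, and UT overlapped Ni-W and HCl3. No comparison was called, with log2 fold changes from −0.36 to 0.40 (adjusted p = 0.258 to 0.924). The intervals were wide, for instance −0.15 to 0.95 for Ni-E against UT, so a rise of the size seen in MT2A is inside them. Of the 50-base windows of the MT1X transcript in GENCODE 44, 51.0% also occurred in transcripts of other genes, mainly metallothioneins, against 11.1% for MT2A, 5.34% for MT1E and 0.647% for MTF1. Since the authors removed reads with several alignments, some MT1X reads may be missing from its level. The read length was not given in the sources used here, so the share lost is not known and the 51.0% does not measure it.

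MT1F, a minor isoform, was read 26 to 94 times per library. Its level was 1.82 and 2.00 RPKM in UT, 3.82 and 3.8 RPKM in Ni-E, 3.13 and 3.06 RPKM in Ni-W, and 5.17 and 4.11 RPKM in HCl3. Both UT libraries were lowest and no groups overlapped. The test called MT1F in HCl3 against UT alone, at 2.34-fold (1.23 ± 0.44, adjusted p = 0.0198). That call was lost without any 1 of the 4 libraries (1.06 to 1.38, adjusted p = 0.0884 to 0.472) and with the replicate block (adjusted p = 0.171). For Ni-E and Ni-W against UT the values were 0.94 ± 0.49 (adjusted p = 0.225) and 0.66 ± 0.49 (adjusted p = 0.337), and the difference of HCl3 from Ni-W was 0.57 ± 0.37 (adjusted p = 0.342).

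**Figure D3:**
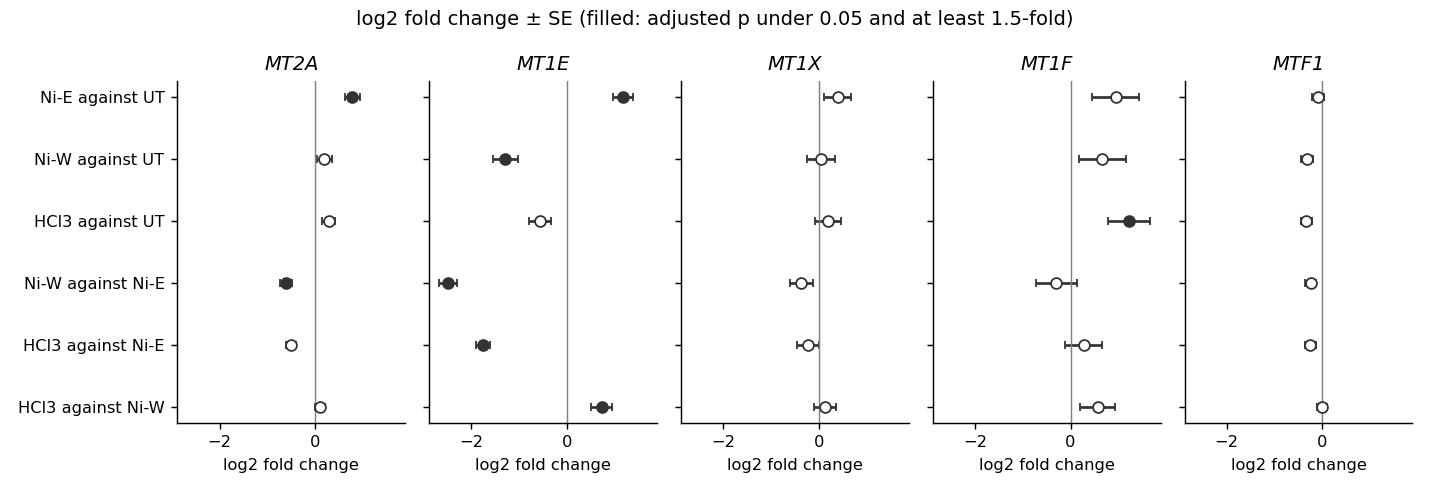
log2 fold change with its standard error for 5 members in the 6 comparisons, from DESeq2 with the 4 libraries of each pair; filled points passed an adjusted p of 0.05 at 1.5-fold or more. MT1E is filled in 5 of 6 comparisons, MT2A in 2, MT1F in 1, and MT1X and MTF1 in none.

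The remaining members were at the edge of detection. MT1A had 3 and 0 reads in the UT libraries, 1 and 2 in those of Ni-E, 3 and 5 in those of Ni-W and 8 and 6 in those of HCl3. Summed over a group and scaled to depth, the MT1A ratio was 3.96 for HCl3 against UT (95% exact interval 1.11 to 21.5, counting error only) and 2.22 for Ni-W against UT (0.532 to 12.97), and DESeq2 gave no call (adjusted p = 0.405 and 0.682). MT1G was read at most 3 times in any library, MT1H at most 3 times with none in UT, and MT1M once in Ni-W replicate 2 and once in HCl3 replicate 2 alone. These 3 genes were at or under the floor in every library and no fold is given for them. Of the 8 metallothionein rows that are not members, MT1B, MT1DP, MT1HL1, MT1IP and MT4 had 0 reads throughout, MT1L had 1 read in all, and MT1JP and MT3 had at most 3 in a library.

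Summed over all 16 metallothionein rows, the level was 162 and 112 CPM in UT, 224 and 277 CPM in Ni-E, 167 and 133 CPM in Ni-W, and 162 and 172 CPM in HCl3. Ni-E was the highest group, and the other 3 groups overlapped. The ratio of group means to UT was 1.83 for Ni-E, 1.10 for Ni-W and 1.22 for HCl3, given without a test. Over left-out libraries it ran from 1.54 to 2.24 for Ni-E, from 0.93 to 1.35 for Ni-W and from 1.03 to 1.49 for HCl3, with each lowest value without UT replicate 2 and each highest without UT replicate 1. For Ni-W it was also under 1 without Ni-W replicate 1 (0.97). The sum was set mainly by MT2A, which made up 83.0% to 92.0% of metallothionein reads.

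The make-up of the pool also shifted between groups. MT1E contributed 10.4% (95% Wilson interval 9.67 to 11.2) and 8.89% (7.92 to 9.98) of metallothionein reads in UT and 13.1% (12.4 to 13.9) and 12.3% (11.6 to 12.9) in Ni-E. In Ni-W its share was 4.04% (3.62 to 4.50) and 3.36% (2.85 to 3.95), and in HCl3 5.78% (5.21 to 6.40) and 5.55% (5.02 to 6.12). Per 100 MT2A reads UT held 12.2 and 10.2 MT1E reads, Ni-E 15.8 and 14.5, Ni-W 4.42 and 3.65, and HCl3 6.49 and 6.19. The 4 groups did not overlap in this ratio, which compares 2 genes within a library and so does not depend on depth. With 2 libraries against 2, an exact permutation test cannot give a two-sided p below 0.333, so no p is given. The same ratio for MT1X ran from 2.90 to 4.29 across all libraries, and its lowest values were both in Ni-E (3.52 and 2.90). For MT1F it was 0.657 to 1.78, with both HCl3 libraries (1.78 and 1.32) above the rest.

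**Figure D4:**
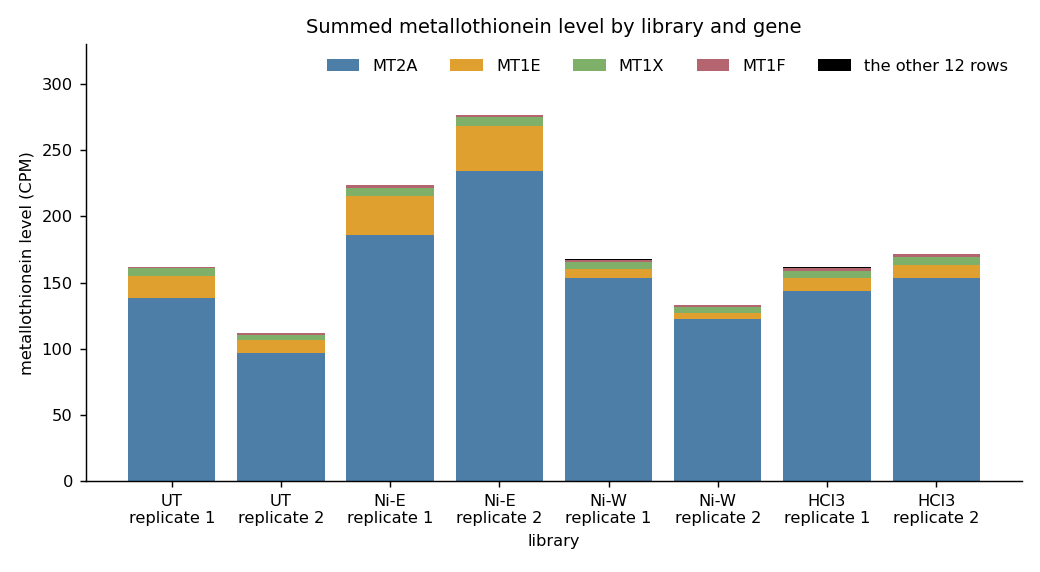
Metallothionein reads in CPM in each of the 8 libraries, stacked by gene (MT2A, MT1E, MT1X, MT1F and the remaining rows together) from 0. Ni-E replicates reach 224 and 277 CPM, the other libraries 112 to 172, and the MT1E segment is thinnest in Ni-W, at 4.04% and 3.36% of the stack.

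Counts of members called were read against the whole table. Between Ni-E and UT 2 members were called, MT1E and MT2A, both higher, of 5 tested. Over all 14478 genes tested in that comparison 5.80% were called, 3.75% higher and 2.05% lower. Between Ni-W and UT 1 member was called, MT1E, lower, of 6 tested, where 15.7% of all genes were called, 10.9% higher and 4.83% lower. Between HCl3 and UT the 1 call was MT1F, higher, against 14.8% of all genes, 11.1% higher and 3.74% lower. Members were thus called at a share near the background in the washed-out groups against UT.

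Against Ni-E, 2 members were lower in Ni-W, MT1E and MT2A, of 6 tested, where 20.5% of all genes were called, 11.7% higher and 8.81% lower. In HCl3 against Ni-E only MT1E was called, lower, against 17.1% of all genes, 10.4% higher and 6.78% lower. Between HCl3 and Ni-W only MT1E was called, higher, against 4.77% of all genes, 3.10% higher and 1.66% lower. The median log2 fold change of the tested members was 0.78 for Ni-E against UT, 0.12 for Ni-W against UT and 0.24 for HCl3 against UT, and −0.33, −0.24 and 0.35 in the last 3 comparisons in the order given here. The medians of all tested genes lay between −0.00 and 0.02. Members entered these counts and medians where DESeq2 gave an adjusted p. That took in MT1A, with at most 8 reads in any library, in every comparison except Ni-E against UT. Comparisons that share a group are not independent.

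MTF1, the regulator, was expressed at 4.66 to 6.08 RPKM across the 8 libraries. It was at 5.80 and 6.08 RPKM in UT, 5.74 and 5.78 RPKM in Ni-E, 4.66 and 5.05 RPKM in Ni-W, and 5.10 and 4.68 RPKM in HCl3. All 4 washed-out libraries lay below the other 4, and Ni-W and HCl3 overlapped. During exposure MTF1 differed from UT by −0.10 ± 0.12 (adjusted p = 0.712, 95% interval −0.34 to 0.14). Against UT it was −0.33 ± 0.12 in Ni-W (adjusted p = 0.0284) and −0.33 ± 0.11 in HCl3 (adjusted p = 0.0144), both under 1.5-fold and so not called. Against Ni-E it was −0.24 ± 0.12 in Ni-W (adjusted p = 0.0837) and −0.25 ± 0.11 in HCl3 (adjusted p = 0.0505).

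MTF1 is a long transcript, at percentile 95.0 of length among genes with a mean count of 10 or more, whereas the measured metallothioneins are at percentile 1.28 or lower. In GC content MTF1 is at percentile 44.9 and they are at 65.9 to 80.7. With trends in GC content and length removed from each library, MTF1 passed the threshold in 4 comparisons. Its values then were −0.68 in Ni-W and −0.62 in HCl3 against UT (adjusted p = 2.01e-10 and 9.78e-11), and −0.68 and −0.63 against Ni-E (adjusted p = 1.55e-08 and 2.69e-08). Against UT, Ni-E was then at 0.02 (adjusted p = 0.965). The direction in the washed-out cells was the same in both fits, and the size depended on this correction.

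The other genes known to respond to MTF1 were taken as 1 list without regard to direction. SLC39A10 is known to be repressed through MTF1, so the list has no single direction to test and its medians mix signs. The list held 10 genes, all tested in every comparison, and its counts are read beside the shares of all genes given above. The first 3 comparisons share the UT libraries. Between Ni-E and UT 3 rose, PGF, NDRG1 and CSRP1, and none fell. Between Ni-W and UT, and between HCl3 and UT, 4 rose, NDRG1, PGF, SLC39A10 and SLC40A1, and none fell. Against Ni-E, NDRG1, SLC39A10 and SLC40A1 rose in both washed-out groups, SLC30A1 fell in both, and PGF fell in Ni-W (−1.07 ± 0.32, adjusted p = 0.00342). The last call was lost without Ni-E replicate 1, Ni-W replicate 1 or Ni-W replicate 2 (adjusted p = 0.102 to 0.216) and with the replicate block (adjusted p = 0.05004). Between HCl3 and Ni-W DESeq2 called 0 of 10, with 4 genes at an unadjusted p under 0.05, and edgeR called 1, PGF. By DESeq2, NDRG1 was higher in HCl3 than in Ni-W (0.37, adjusted p = 0.000157) and SLC39A10 lower (−0.23, adjusted p = 0.0440), both under 1.5-fold. The medians of the list were 0.02 for Ni-E, 0.29 for Ni-W and 0.16 for HCl3 against UT, beside −0.00, 0.01 and 0.01 for all tested genes.

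SLC30A1 encodes the zinc exporter ZnT1 and is the best known MTF1 target outside the metallothioneins. It was at 10.2 and 12.3 RPKM in UT, 15.6 and 13.01 RPKM in Ni-E, 7.52 and 10.2 RPKM in Ni-W, and 9.09 and 8.81 RPKM in HCl3. Like MT2A and MT1E it was highest in both Ni-E libraries, and Ni-W overlapped UT. Its rise in Ni-E was not called (0.30 ± 0.17, adjusted p = 0.271), and against UT it was −0.38 in both Ni-W and HCl3 (adjusted p = 0.0993 and 0.0357), under 1.5-fold. It fell from Ni-E by 0.69 in Ni-W (SE 0.17, adjusted p = 0.000314) and by 0.69 in HCl3 (SE 0.14, adjusted p = 7.45e-06). These calls were lost without Ni-E replicate 1 (−0.53 in each comparison), and the first also without Ni-W replicate 1 (−0.48). Its single 250-base RefSeq window held 1 MRE core, 49 bases before the start site, and 24.8% of all windows held at least 1. In the windows available for other genes of the list the count ran from 0, as in PGF and SLC39A10, to 4 in 1 window of CSRP1.

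The zinc importer gene SLC39A10, known to be repressed through MTF1, and the iron exporter gene SLC40A1 went the other way after wash-out. SLC39A10 was at 7.32 and 7.78 RPKM in UT, 6.11 and 5.65 RPKM in Ni-E, 14.1 and 13.4 RPKM in Ni-W, and 12.03 and 11.7 RPKM in HCl3. Ni-E was lowest, at −0.42 ± 0.14 against UT (adjusted p = 0.0255, under 1.5-fold), and the washed-out groups were highest. Against UT it rose by 0.83 ± 0.12 in Ni-W (adjusted p = 2.79e-11) and 0.60 ± 0.11 in HCl3 (adjusted p = 6.86e-07), and the latter fell under 1.5-fold without UT replicate 1 (0.55) or HCl3 replicate 1 (0.58) and with GC and length trends removed (0.54). SLC40A1 was at 0.27 and 0.21 RPKM in UT, 0.07 and 0.19 RPKM in Ni-E, 1.54 and 1.64 RPKM in Ni-W, and 1.33 and 1.39 RPKM in HCl3. It was 6.30-fold higher in Ni-W and 5.31-fold higher in HCl3 than in UT (adjusted p = 6.13e-13 and 2.13e-10).

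NDRG1, a stress-response gene that is also widely used as a marker of hypoxia signalling, was at 15.4 and 10.3 RPKM in UT, 17.9 and 22.8 RPKM in Ni-E, 128 and 109 RPKM in Ni-W, and 155 and 155 RPKM in HCl3. The washed-out libraries were far above the rest, at 9.21-fold and 11.9-fold of UT (adjusted p = 1.09e-20 and 8.91e-29). Its smaller rise in Ni-E (0.63 ± 0.18, adjusted p = 0.00873) lost its call with the replicate block (adjusted p = 0.0513), in the fit of all 8 libraries (adjusted p = 0.0530), with GC and length trends removed (0.54, adjusted p = 0.0163, under 1.5-fold) and without UT replicate 2 (0.36), Ni-E replicate 1 (0.79, adjusted p = 0.632) or Ni-E replicate 2 (0.46). PGF, which encodes placental growth factor and is likewise known to respond to low oxygen, was at 0.46 and 0.51 RPKM in UT, 2.64 and 1.91 RPKM in Ni-E, 1.10 and 1.10 RPKM in Ni-W, and 1.51 and 1.86 RPKM in HCl3. It was 4.68-fold higher in Ni-E than in UT (adjusted p = 7.74e-07), which became adjusted p = 0.0627 without Ni-E replicate 1. PGF was also higher than in UT in Ni-W (1.17 ± 0.44, adjusted p = 0.0275) and in HCl3 (1.80 ± 0.38, adjusted p = 2.90e-05), and HCl3 against Ni-E gave −0.44 with an adjusted p = 0.258. The Ni-W call was lost when any 1 library was left out (adjusted p = 0.129 to 0.378) or with the replicate block (0.117), and the HCl3 call without HCl3 replicate 2 (adjusted p = 0.112).

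CSRP1, which encodes a LIM-domain protein, was at 76.0 and 83.3 RPKM in UT and 135 and 119 RPKM in Ni-E (0.62 ± 0.12, adjusted p = 1.12e-05). It fell under 1.5-fold without UT replicate 1 (0.55) or Ni-E replicate 1 (0.51), and with GC and length trends removed (0.50). The levels of CSRP1 in Ni-W, 94.9 and 103 RPKM, and in HCl3, 97.8 and 98.7 RPKM, lay between those of UT and Ni-E. The remaining 4 genes of the list, GCLC of glutathione synthesis, TXNRD2 of the mitochondrial thioredoxin system and the selenoprotein genes SEPW1 and C11orf31 (SELENOH), were called in no comparison.

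**Figure D5:**
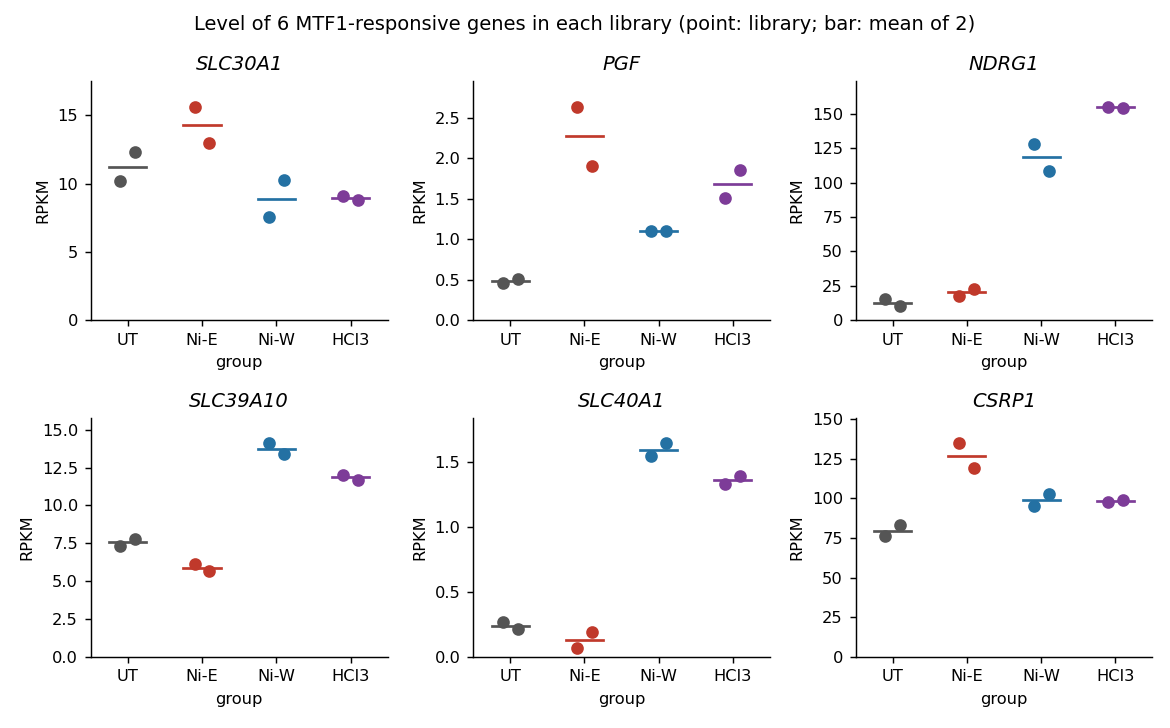
RPKM of SLC30A1, PGF, NDRG1, SLC39A10, SLC40A1 and CSRP1 in each library (points) with the mean of each group of 2 (bars), on linear axes from 0 that differ between panels. SLC30A1, PGF and CSRP1 are highest in both Ni-E libraries, whereas NDRG1 (109 to 155 RPKM), SLC39A10 and SLC40A1 are highest in the Ni-W and HCl3 libraries.

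Genes beside the metallothionein cluster were examined in the same fits. Within 500 kb of either end lay 17 listed genes that are not metallothioneins, of which 9 or 10 were tested. Between Ni-E and UT DESeq2 and edgeR called 0 of these neighbours and 2 had an unadjusted p under 0.05, with log2 fold changes from −0.10 to 0.35 and a median of 0.07. GNAO1, a G-protein subunit gene 208 kb before the cluster, had 0 reads in both UT libraries, and 1 and 3 reads in those of Ni-E, 22 and 21 in those of Ni-W and 12 and 17 in those of HCl3. It was called higher in Ni-W and HCl3 than in UT (adjusted p = 0.00101 and 0.00595), at least 11.9-fold and 8.21-fold higher when UT is set to a floor of 3 reads over the group, and higher in Ni-W than in Ni-E (adjusted p = 0.0150). OGFOD1, 87.6 kb before the cluster, was lower in HCl3 than in Ni-E (−0.62 ± 0.11, adjusted p = 6.50e-08). Of 10 tested neighbours, 3 in Ni-W against UT, 4 in HCl3 against UT, 4 in Ni-W against Ni-E and 7 in HCl3 against Ni-E had an unadjusted p under 0.05. By edgeR 1 was called in each of the first 3 and 2 in the last, OGFOD1 and GNAO1 (2.64, adjusted p = 0.0104), of which DESeq2 called OGFOD1 alone. Between HCl3 and Ni-W DESeq2 and edgeR called 0, and 2 had an unadjusted p under 0.05. Over all tested genes DESeq2 called 5.80% for Ni-E, 15.7% for Ni-W and 14.8% for HCl3 against UT. It called 20.5% for Ni-W and 17.1% for HCl3 against Ni-E, and 4.77% for HCl3 against Ni-W. No share of all genes at an unadjusted p under 0.05 was counted. The neighbours' counts are therefore not read as particular to the cluster.

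Genes whose levels followed those of a member most closely were ranked by Pearson r of log2(normalised count + 1) over the 8 libraries among 12014 other genes. For MT2A these were WBP2 (r = 0.987), GSTP1 (0.982), PIDD1 (0.981), PPP1R12C (0.972) and P2RX4 (0.970). For MT1X they were CFD (0.984), ZNF784 (0.979), LMAN2 (0.977), FLYWCH2 (0.976) and NDUFA13 (0.968), and for MTF1 they were ESF1 (0.991), LYRM7 (0.990), IFRD1 (0.989), GMEB1 (0.987) and SLC30A7 (0.987). All genes share the same 8 libraries and their depths, and the ranking is a description with no test.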

How the data were processed

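RNA-Seq was performed by the authors on 2 biological replicates of each of 4 groups of BEAS-2B cells (TruSeq RNA kit, Illumina sequencing). Per the study's methods and the submitters' processing notes, the authors used STAR 2.4 and hg19, discarded multi-mapped reads and counted the rest over RefSeq genes in BioWardrobe. The deposited RPKM values scale these counts to transcript length and mapped reads, rounded to 2 decimals. Use of strand in counting and the read length were not given in the sources used here.

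The 25411 rows of deposited counts were tested in R 4.3.3 with DESeq2 1.42.0, one fit for each of 6 pairs of groups with its 4 libraries (Wald tests, two-sided, on counts scaled by median-of-ratios size factors, with independent filtering, adjusted over all tested genes by Benjamini-Hochberg). A gene was called at an adjusted p under 0.05 and at least 1.5-fold. RPKM values are given as levels. The 16 metallothionein rows were also summed as CPM, reads per 1000000 reads of the library, without a test, and MTL5, which is no metallothionein, was left out of the sum. Intervals are 95% Wilson intervals for shares and exact intervals for ratios of reads, and with no molecular identifiers they cover counting error only. The floor was 3 reads.

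Alternatives were edgeR 4.0.16, limma 3.58.1 on log2 RPKM values with a pseudocount of 1 or 0.1, TMM size factors, other filters on low counts, 1 fit of all 8 libraries, GC and length trends removed (natural splines with 5 degrees of freedom for each, both values being known for 98.3% of genes with mean counts of 10 or more), a replicate block, and leaving out each library. The crossed block, and the checks of ratios and of the summed level without single libraries, were chosen after seeing the data. Scripts were tested on simulated data.

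The members, the MTF1-responsive list and the markers were chosen with earlier results of these data known. Named besides them were genes within 500 kb of the cluster that were called, and the 5 genes most like MT2A, MT1X and MTF1 in pattern among those with a mean normalised count of at least 50. Libraries of a group differed beyond sampling noise (chi-square per degree of freedom 5.17 to 23.8), so none was treated as the same library deposited again. This does not show separate cultures: the labels mark replicate 2 of each group as Dup, and biological replication is taken from the study's methods, so p-values measure the spread between these libraries.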

Additional observations from a re-analysis of the deposited data

Results flagged for a closer look

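MT1E, which encodes a metal-binding isoform, differed in its change from UT between the washed-out populations. Tested directly by DESeq2, HCl3 was above Ni-W by 0.73 on the log2 scale (SE 0.22, adjusted p = 0.00796), and both HCl3 libraries (16.5 and 16.8 RPKM) were above both Ni-W libraries (11.9 and 7.89 RPKM). Over the other settings the value ran from 0.48 to 1.05, and the adjusted p from 0.00212 to 0.380. Per 100 MT2A reads, MT1E was read 6.49 and 6.19 times in HCl3 and 4.42 and 3.65 times in Ni-W. Whether the populations differ in the time without nickel is not given in the labels, so clone, time and exposure cannot be told apart.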

How the results depend on the processing

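With 2 libraries a group, adjusted p values rest on a spread shared across genes, and MT1F and the weaker members are limited by depth. Calls of MT1E between Ni-E and UT and between each washed-out group and Ni-E held in every DESeq2 and edgeR setting run, though with limma the first was lost (adjusted p = 0.121 and 0.134 with pseudocounts 1 and 0.1). The cause of the changes listed here was not tested, except that a stricter fold limit leaves fewer calls by construction.

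Same-suffix libraries of 2 groups share only a suffix. Correlations of their deviations were −0.159 to 0.222. With the replicate block the number of members called was 0 for HCl3 against UT and 0 for HCl3 against Ni-W (1 each without it), and the other 4 counts did not change. The crossed block, run where the correlation was under −0.1, gave 0 for HCl3 against UT and 2 for Ni-W against Ni-E and 2 for Ni-E against UT. With limma on log2(RPKM + 1) the count was 0 for Ni-E against UT, 0 for Ni-W against UT, 1 for Ni-W against Ni-E and 0 for HCl3 against Ni-W. With log2(RPKM + 0.1) it was 0, 2 (MT1F and MT1H), 1 and 0, and 2 (MT1A and MT1E) for HCl3 against Ni-E. The MT1H call rested on 1 read in each Ni-W library and 0 in UT. The MT1A call rested on 8 and 6 reads in HCl3 against 1 and 2 in Ni-E. With GC and length trends removed it was 2 for Ni-W against UT, HCl3 against UT and HCl3 against Ni-E, in each through MTF1, and the replicate block with the same correction gave 2 for Ni-W against UT and 2 for HCl3 against Ni-E. At 2-fold the count was 1 for Ni-E against UT, 1 for Ni-W against Ni-E and 0 for HCl3 against Ni-W. With no fold threshold it was 2 for Ni-W against UT, 3 for HCl3 against UT and 2 for HCl3 against Ni-E. Leaving out each library gave 1 to 2 for Ni-E against UT, 0 to 1 for Ni-W against UT, 0 to 1 for HCl3 against UT, 1 to 2 for Ni-W against Ni-E, 1 to 2 for HCl3 against Ni-E and 0 to 1 for HCl3 against Ni-W.

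Signs turned only for estimates that were not called. MTF1 in Ni-E against UT became 0.017 with GC and length trends removed and 0.016 with the replicate block added. In HCl3 against Ni-W it became 0.032 and 0.031 under the same settings, 0.0085 and 0.010 with limma at pseudocounts 1 and 0.1, and −0.069 to 0.059 over left-out libraries. MT1X in HCl3 against Ni-E became 0.029 with the trends removed and 0.028 with the block added. Over left-out libraries MT1X ran from −0.23 to 0.42 for Ni-W against UT, −0.095 to 0.55 for HCl3 against UT and −0.025 to 0.32 for HCl3 against Ni-W, and MT2A from −0.036 to 0.46 for Ni-W against UT and −0.043 to 0.26 for HCl3 against Ni-W. The ratio of summed metallothionein level to UT, which has no test, ran over left-out libraries from 0.93 (without UT replicate 2) to 1.35 (without UT replicate 1) in Ni-W (0.97 without Ni-W replicate 1), from 1.54 to 2.24 in Ni-E and from 1.03 to 1.49 in HCl3.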

Other observations

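MTL5, whose name recalls the family although its product is not a metallothionein, was at 0.89 to 1.51 RPKM across the 8 libraries, with UT and HCl3 (1.15 to 1.51 RPKM) above Ni-E and Ni-W (0.89 to 1.05 RPKM). It was not tested as a member.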
